A study of Mus musculus with 6 samples.

Results

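The 8 genes described are the cyclin-dependent kinase inhibitors of the Cip/Kip family (Cdkn1a, Cdkn1b and Cdkn1c) and of the INK4 family (Cdkn2a, Cdkn2b, Cdkn2c and Cdkn2d), together with Trp53, taken by symbol from the 55450 features of each library. All 8 were listed in every library, and each had at least 1 UMI (a counted mRNA molecule) in each. The cells were live cells released by enzymes from calvaria of wild-type C57BL/6 mice after the dura and the periosteum had been removed, with red blood cells lysed, and were profiled by 10x Genomics 3' single-cell RNA sequencing. CBMA comprised the sagittal suture and adjoining parietal bone, and CBMD was parietal bone taken away from the suture. Each site was sampled from mice of 18 months (18m), 12 months (12m) and 2 months (02m), stated to be male, with the cells of several mice pooled, so that each of the 6 libraries stood alone for its age and site and the sites of an age may hold the same mice. No treatment or engineered allele was used. With 1 library a group there was no replicate check and no test between groups. Intervals in brackets are exact 95% intervals for counting error and leave out differences between mice, dissections and libraries.

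Cyclin-dependent kinases (CDKs), switched on by cyclins, carry a cell from G1 into S phase and on to mitosis. Cip/Kip proteins, p21 (Cdkn1a), p27 (Cdkn1b) and p57 (Cdkn1c), bind cyclin-CDK complexes of several kinds, whereas INK4 proteins, p16 (from Cdkn2a), p15 (Cdkn2b), p18 (Cdkn2c) and p19Ink4d (Cdkn2d), bind CDK4 and CDK6 and block their pairing with D-type cyclins. The p53 protein, encoded by Trp53, is a transcription factor held in check by Mdm2, and Cdkn1a is among its best known targets. Trp53 mRNA is not a measure of p53 activity, since the protein is governed largely by its breakdown. Cdkn2a also encodes Arf, which shields p53 from Mdm2, and its p16 product is widely used as a marker of senescent cells in bone and other aged tissues.

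In GRCm38, the build named by the submitters, Cdkn1a lies at chr17:29090976-29100727 (+), Cdkn1b at chr6:134920401-134925513 (+), Cdkn1c at chr7:143458339-143461050 (-), Cdkn2d at chr9:21288410-21291407 (-) and Trp53 at chr11:69580359-69591873 (+), by GENCODE vM21, whose identifiers matched those of the files for all 8. On chromosome 4, Cdkn2a (chr4:89274471-89294653, -) and Cdkn2b (chr4:89306299-89311039, -) are neighbours, and Cdkn2c lies further off (chr4:109660876-109667189, -). The first exon of the Arf transcript of Cdkn2a is at chr4:89294334-89294653 and that of the p16 transcript at chr4:89281986-89282192. Both transcripts end in the same last exons, so counts made at 3' ends cannot tell p16 from Arf mRNA, and every Cdkn2a value below is the sum of both. Cdkn1a and Cdkn1c each overlap an annotated gene on the opposite strand, AC167363.2 and Gm44732, away from their 3' ends.

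Cdkn1a is a target of p53, and the Arf start of Cdkn2a is known to answer to E2F, the factor that Rb holds back while CDK4 and CDK6 are blocked, so the sequences before these starts are shown, beside that before the p16 start. Promoter windows of 7 of the 8 members, all but Cdkn1c, were in the RefSeq table for GRCm38.p6, with 10 windows in all, and the 250 bases before each RefSeq start were searched on both strands, bases of annotated transcripts included. The p53 double decamer, with at most 1 base different from its pattern, was found in 25 of 32851 windows (0.0761%). Among the members it was found only before the upstream Cdkn1a start, from 51 to 32 bases before that RefSeq start (capitals). The E2F letters TTTCCCGC, TTTCGCGC, TTTGCCGC or TTTGGCGC were in 611 windows (1.86%), among them that before the Arf start of Cdkn2a, where TTTCCCGC stands 99 to 92 bases before the RefSeq start (capitals). No match to either was found before the p16 start. A match is a description of the letters and not a site shown to be bound. The stretches printed stop where the first GENCODE transcript begins, so those of Cdkn1a and of the Arf start end 3 and 34 bases short of the RefSeq start.
Cdkn1a, chr17:29090729-29090975, +: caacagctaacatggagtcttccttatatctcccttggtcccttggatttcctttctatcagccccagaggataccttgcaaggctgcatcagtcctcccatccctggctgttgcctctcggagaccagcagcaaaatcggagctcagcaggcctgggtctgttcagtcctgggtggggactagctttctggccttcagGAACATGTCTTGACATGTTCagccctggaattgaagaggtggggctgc
Cdkn2a Arf start, chr4:89294654-89294869, -: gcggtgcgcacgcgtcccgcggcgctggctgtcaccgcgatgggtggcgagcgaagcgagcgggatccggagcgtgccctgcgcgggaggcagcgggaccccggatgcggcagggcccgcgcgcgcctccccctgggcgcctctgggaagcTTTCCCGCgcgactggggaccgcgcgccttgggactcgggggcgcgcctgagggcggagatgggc
Cdkn2a p16 start, chr4:89282193-89282442, -: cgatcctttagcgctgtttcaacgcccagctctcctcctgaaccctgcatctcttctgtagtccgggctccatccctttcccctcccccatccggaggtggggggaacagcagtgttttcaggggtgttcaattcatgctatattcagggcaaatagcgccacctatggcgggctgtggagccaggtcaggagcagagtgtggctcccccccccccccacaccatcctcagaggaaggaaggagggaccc

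The files held 43420 cell barcodes, of which 37576 passed the study's limits on genes, UMIs and mitochondrial share, with 2718 to 8580 cells, 12642642 to 50754324 UMIs and a median of 2806 to 3930.5 UMIs per cell in a library. More cells passed than the study counts after the same limits, and the reason was not tested. The 12m libraries, which are also the smallest, stood apart from their label. Xist, the RNA of the silenced X chromosome of female cells, was at 564 and 596 CPM (UMIs per 1000000 UMIs of the same cells) in CBMA and CBMD at 12m, against 0.252 to 0.36 CPM in the other 4 libraries, although the mice were stated to be male. Transcripts of 4 Y-linked genes were at 81 and 91.1 CPM at 12m, against 126 to 215 CPM in the others. The main values at 12m are therefore also given for cells without an Xist UMI, which were the cells left after 37.7% and 42.1% were set aside. A female cell can lack an Xist UMI, so these cells are not all male. Cells with a Y UMI and no Xist UMI were 19.3% and 18.9% at 12m, against 43.6% to 56.2% in the other 4 libraries. The cells kept were also shallower on average, with 6358084 of 12642642 UMIs in CBMA and 10278976 of 21987713 in CBMD. They are set against all 02m cells. Pairs of libraries shared few cell barcodes (6 to 21). Cells were assigned to 18 classes by UMIs of fixed marker genes, and below "neutrophils", "monocytes" and so on mean cells that passed that gate. The gates took 85% of cells, from 20778 neutrophils and 6641 monocytes to 30 osteoblasts. The marrow in the bone spaces made up most of the cells, and classes of the suture and bone surface were small.

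Over all cells, Cdkn1b and Cdkn2d were the most abundant members, Cdkn1a followed, Trp53 and Cdkn2c were lower, Cdkn1c was low, and Cdkn2a and Cdkn2b were close to the limit of detection. Cdkn1b summed to 173 CPM over all cells, Cdkn2d to 154, Cdkn1a to 99.6, Trp53 to 53.6, Cdkn2c to 29.4 and Cdkn1c to 10.1 CPM. Because 3' UMIs count molecules, these levels may be set side by side between genes, short of differences in capture at each 3' end. Cdkn2a gave 99 and Cdkn2b 65 UMIs in 37576 cells, or 0.488 (0.396 to 0.594) and 0.32 (0.247 to 0.408) CPM.

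**Figure D1:**
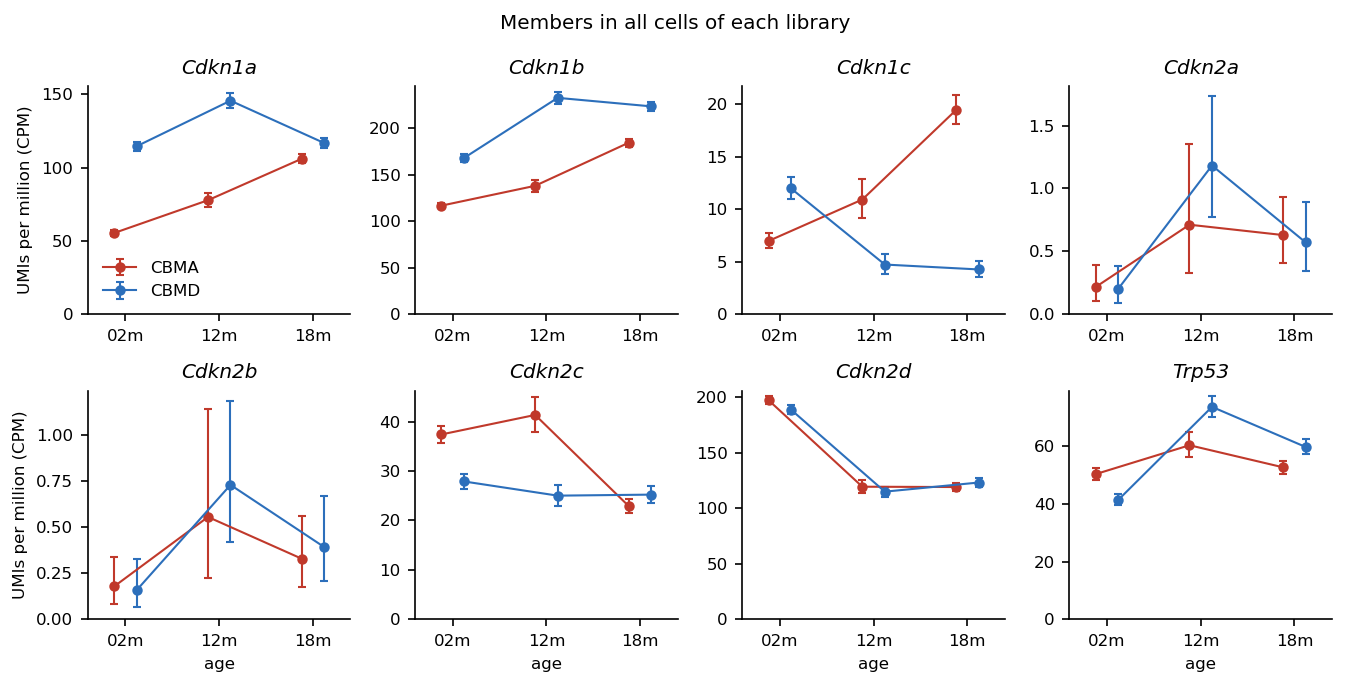
Level of each member in all cells of each library, in CPM, by age in months, with CBMA and CBMD as separate symbols and bars for the exact 95% counting interval (1 library per point). Cdkn1a at 02m was 55.5 CPM in CBMA and 115 CPM in CBMD, and Cdkn2d was lower at 12m and 18m than at 02m in both sites.

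To set age against the young libraries, each member with at least 50 UMIs in a pair of libraries was called higher or lower at a ratio of 1.5, which left out Cdkn2a and Cdkn2b. In CBMA, 3 of 6 members were called higher at 18m than at 02m (Cdkn1a, Cdkn1b and Cdkn1c) and 2 lower (Cdkn2c and Cdkn2d). Of all genes compared there, 33.7% were called higher and 13.2% lower, so calls in either direction were common. In CBMD, none of the 6 was called higher and 2 were called lower (Cdkn1c and Cdkn2d), beside 22.7% higher and 14.6% lower over all genes. The median gene lay at a log2 ratio of 0.24 in CBMA and 0.11 in CBMD. Cdkn2d was the only member called in the same direction in both sites. At 12m against 02m, Cdkn1c was called higher and Cdkn2d lower in CBMA (all genes 33.9% and 10.4%), and Trp53 was called higher and Cdkn1c and Cdkn2d lower in CBMD (30.4% and 14.8%). A level over all cells also moves with the share of each class, so the members are next taken class by class.

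Cdkn1a, which encodes p21, was measured at 55.5, 77.8 and 106 CPM in CBMA at 02m, 12m and 18m and 115, 146 and 117 CPM in CBMD at the same ages. CBMA at 02m was the lowest library and CBMD at 12m the highest. The ratio of 18m to 02m was 1.91 (1.82 to 2.01) in CBMA and 1.02 (0.977 to 1.06) in CBMD, and that of CBMA to CBMD was 0.484 (0.462 to 0.507) at 02m, 0.534 (0.497 to 0.574) at 12m and 0.908 (0.869 to 0.949) at 18m. Without Xist-bearing cells the 12m site ratio was 0.47 (0.421 to 0.523). Of the 6 members compared between CBMA and CBMD at 02m, none was called higher and 2 lower (Cdkn1a and Cdkn1c), beside 6.48% higher and 11.6% lower over all genes. At 12m, Cdkn1c and Cdkn2c were higher and Cdkn1a and Cdkn1b lower in CBMA (all genes 20.4% and 14.2%), and at 18m only Cdkn1c was called, higher in CBMA (14.1% and 3.38%). Giving every library the same mix of classes left the CBMA ratio of 18m to 02m at 1.9. The stromal, endothelial and Schwann classes were taken as 1 for this, and CBMA held 28 Schwann cells at 18m and 0 at 02m. The mix within that class, and within classes such as neutrophils, was not made the same.

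By class, Cdkn1a was at 1192 CPM (1016 to 1389) in Schwann cells, the glia of peripheral nerve, where 24 of 31 cells held a UMI and no cell held more than 17 of the 164 UMIs. Of these cells 28 came from CBMA at 18m, so this level is in effect that of 1 library. Endothelial cells followed at 220.3 CPM (196 to 247), macrophages at 191, basophils at 184, osteoblasts at 148, mural cells of vessel walls at 144 and monocytes at 126. The intervals of endothelial cells, macrophages and basophils overlapped one another. Neutrophils were at 75, CAR stromal cells (the Cxcl12-rich stroma of marrow) at 63.8, T cells at 62.8, suture and fibroblast mesenchymal cells (suture cells below) at 44.9, B cells at 41.6, erythroid cells at 14 and plasma cells at 8.2 CPM. A UMI of Cdkn1a was seen in 54.4% of monocytes (median 9295 UMIs per cell), 15% of neutrophils (2965 UMIs) and 11.1% of plasma cells, which were the deepest at 23578.5 UMIs. After reducing each cell to 1000 UMIs, the expected shares were 11.8%, 6.63% and 0.782%.

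**Figure D2:**
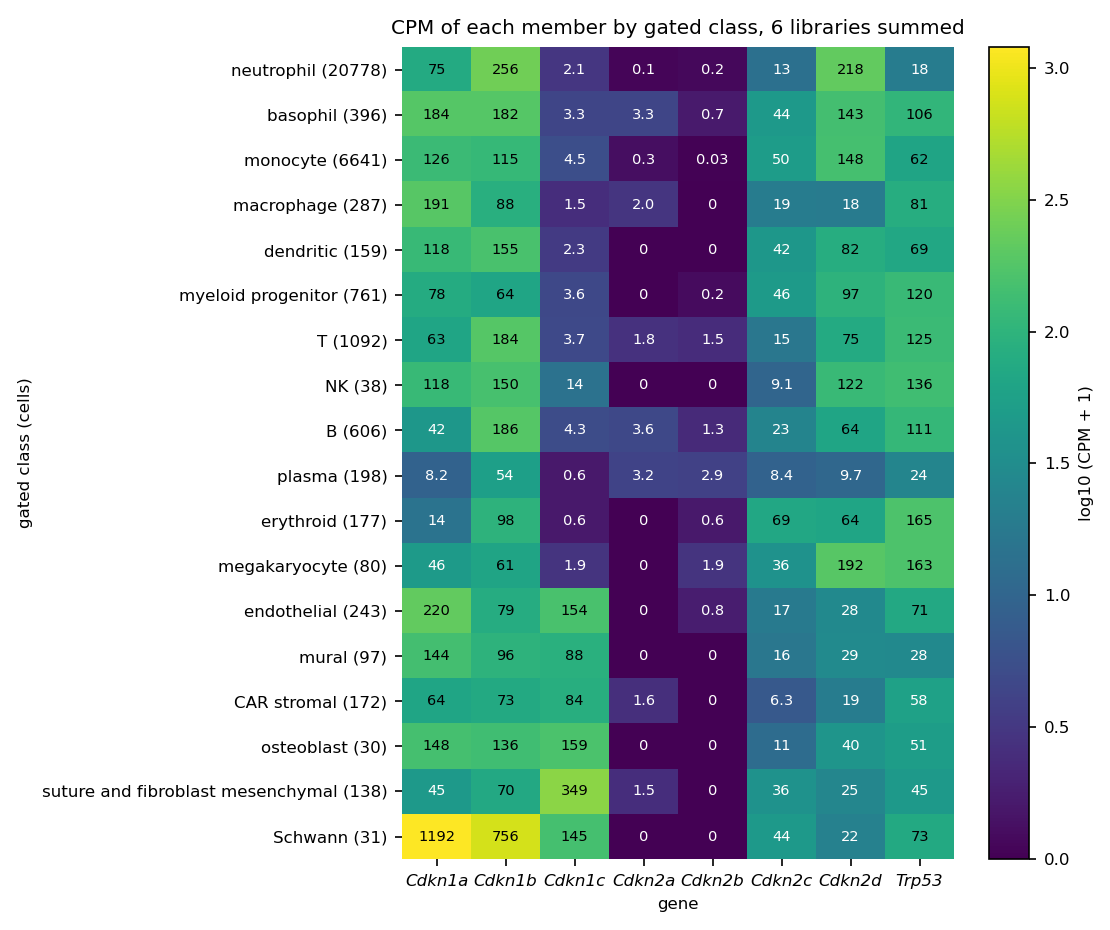
Level of each member (columns) in each of the 18 gated classes (rows), each class summed over the 6 libraries, with the CPM printed in each cell and colour for log10 of CPM plus 1. The Cdkn1c column is brightest in suture and fibroblast mesenchymal cells (349 CPM) and dark in neutrophils (2.08 CPM), and Cdkn2a and Cdkn2b stay under 4 CPM in every class.

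In monocytes, the precursors of macrophages, Cdkn1a was at 68.6, 173 and 148 CPM in CBMA at 02m, 12m and 18m and 121, 289 and 168 CPM in CBMD at the same ages, with the 02m library lowest in each site. At 18m the ratio to 02m was 2.16 (2.01 to 2.32) in CBMA and 1.39 (1.31 to 1.48) in CBMD, and that of 12m to 02m 2.52 (2.27 to 2.8) and 2.39 (2.22 to 2.58). For 12m monocytes without an Xist UMI the ratios to 02m were 2.59 (2.2 to 3.02) and 2.89 (2.61 to 3.2). Among monocytes, 2 of 6 members (Cdkn1a and Cdkn1b) were called higher at 18m in CBMA and 2 lower (Cdkn1c and Cdkn2d), beside 22% and 12% of all genes, while in CBMD none was called higher and the same 2 were lower, beside 20.3% and 12.6%. The Cdkn1b ratio was nearly the same in both sites, and that of CBMD fell just short of a call. Cycling cells, those with UMIs of at least 4 of 16 genes of G2 and M phase, were 19.3% of monocytes at 18m against 45.3% at 02m in CBMA, and 23.3% against 45.2% in CBMD. The Cdkn1a ratio of 18m to 02m was 2.17 (1.93 to 2.43) within cycling and 2.26 (2.04 to 2.5) within other monocytes of CBMA, and 1.28 (1.16 to 1.41) and 1.58 (1.44 to 1.73) in CBMD.

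In neutrophils Cdkn1a was at 39.9, 34.4 and 62.3 CPM in CBMA at 02m, 12m and 18m and 109, 112 and 87.7 CPM in CBMD at the same ages, so that CBMA lay below CBMD at every age. The ratio of CBMA to CBMD was 0.367 (0.335 to 0.401) at 02m, 0.308 (0.263 to 0.36) at 12m and 0.71 (0.647 to 0.779) at 18m. Without Xist-bearing cells the 12m value was 0.273 (0.22 to 0.335). The 18m to 02m ratio was 1.56 (1.41 to 1.73) in CBMA and 0.806 (0.745 to 0.871) in CBMD. Without cycling cells, which were 3.46% of CBMA neutrophils at 18m and 12.3% at 02m, the CBMA ratio was 1.35 and no longer called. Within cycling neutrophils the ratio was 3.47 (2.5 to 4.82) in CBMA and 1.68 (0.974 to 2.97), an interval that holds 1, in CBMD, on 40 and 22 UMIs in CBMD. Among other neutrophils rich in the granule genes Ltf, Ngp and Camp it was 1.08 (0.537 to 2.07) and 1.34 (0.611 to 2.95) in CBMA and CBMD, with 1 inside both intervals, and among those with less of them, the most numerous, 1.31 (1.17 to 1.46) and 0.804 (0.742 to 0.871). Of these 3 groups of neutrophils, only the last had intervals on opposite sides of 1 in the 2 sites. In both sites together, neutrophils gave 2 members called higher in CBMA (Cdkn1a and Cdkn1b) and 2 in CBMD (Cdkn2c and Trp53), with none lower, beside 14.3% higher and 23% lower of all genes in CBMA and 15.3% and 17.4% in CBMD. Myeloid progenitors, marked by Mpo and Elane, had 135 CPM of Cdkn1a at 18m against 42.5 at 02m in CBMA, a ratio of 3.19 (2.45 to 4.12), and 96.5 against 79.6 CPM in CBMD, a ratio of 1.21 (0.927 to 1.58). At 12m they were at 94.9 CPM in CBMA and 179.9 CPM in CBMD, which was 2.23 (1.64 to 3.01) and 2.26 (1.72 to 2.96) times the 02m level, and 2.92 (1.97 to 4.22) and 2.17 (1.53 to 3.05) times without Xist-bearing cells. T cells of CBMA had 68.6 CPM at 18m (138 UMIs) against 12.8 at 02m (11 UMIs), and those of CBMD 93.9 (119 UMIs) against 42.6 (11 UMIs). T cells at 12m were at 9.52 CPM in CBMA (5 UMIs) and 76.6 in CBMD (138 UMIs), and at 8.56 and 49.3 CPM without Xist-bearing cells, so that in CBMA they did not lie above 02m. Endothelial cells, whose levels by age were 202, 85.6 and 288 CPM in CBMA, then 174, 234 and 206 in CBMD, had ratios of 18m to 02m of 1.42 (0.872 to 2.47) and 1.18 (0.622 to 2.44), which were not distinguishable from 1 at these counts. Macrophages had 212 CPM at 18m against 142 at 02m in CBMA and 159.7 against 102 in CBMD, and 1 was again inside both intervals, at 1.5 (0.798 to 3.16) and 1.56 (0.782 to 3.54). Suture cells of CBMA held 41 Cdkn1a UMIs in 14 of 74 cells at 18m (53.8 CPM), against 3 in 2 of 39 at 02m (9.61 CPM), a ratio of 5.59 (1.78 to 28.2). That ratio rests on the 3 UMIs of 1 young library. Suture cells of CBMD at 02m held 6 UMIs in 6 of 21 cells, at 33.4 CPM. The ratio of CBMA to CBMD at 02m was 0.288 (0.0466 to 1.35).

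Cdkn1b, which encodes p27, the inhibitor typical of resting cells, was the most abundant member over all 6 libraries together, at 117, 138 and 184 CPM in CBMA at 02m, 12m and 18m and 168, 233 and 223 CPM in CBMD at the same ages. At 02m Cdkn2d lay above it in both sites. The later ages lay above 02m in each site when all cells were taken. The ratio of 18m to 02m was 1.58 (1.53 to 1.64) in CBMA, which was called, and 1.33 (1.29 to 1.37) in CBMD, which was not. At every age CBMA lay below CBMD, at 0.695 (0.672 to 0.719), 0.594 (0.562 to 0.627) and 0.826 (0.799 to 0.853) of its level at 02m, 12m and 18m. Schwann cells had 756 CPM (618 to 916), neutrophils 256, B cells 186, T cells 184, basophils 182, osteoblasts 136, monocytes 115, mural cells 96.3, macrophages 87.7, endothelial cells 78.8, CAR stromal cells 73.3, suture cells 70.5 and plasma cells 54.2 CPM. The Schwann level is again in effect that of 1 library, since 91 of its 104 UMIs came from CBMA at 18m. The intervals of B cells (171 to 202), T cells (174 to 194) and basophils (167 to 198) overlapped. Neutrophils held 53.4% of all Cdkn1b UMIs. The ratio of 12m to 02m was 1.18 (1.12 to 1.25) and 1.39 (1.34 to 1.44) in CBMA and CBMD, and 1.24 (1.16 to 1.33) and 1.52 (1.45 to 1.59) without Xist-bearing cells, where Cdkn1a gave 1.24 (1.12 to 1.37) and 1.28 (1.21 to 1.36). In the 19.3% (CBMA) and 18.9% (CBMD) of 12m cells with a UMI of a Y-linked gene and none of Xist, the Cdkn1b ratio to 02m was 0.872 (0.778 to 0.975), below 1, in CBMA and 1.39 (1.3 to 1.47) in CBMD.

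Within neutrophils Cdkn1b was at 181, 159 and 284 CPM in CBMA at 02m, 12m and 18m and 252, 298 and 362 CPM in CBMD at the same ages, with ratios of 18m to 02m of 1.57 (1.5 to 1.64) and 1.44 (1.38 to 1.5) in CBMA and CBMD. The CBMA ratio was 1.43 without cycling cells. Monocytes had 82.3, 117 and 124 CPM in CBMA at 02m, 12m and 18m and 106, 215 and 159 CPM in CBMD at the same ages, with ratios of 1.51 (1.4 to 1.62) and, just short of a call, 1.5 (1.4 to 1.6). T cells had 98, 149 and 187 CPM in CBMA at 02m, 12m and 18m and 101, 227 and 207 CPM in CBMD at the same ages, with ratios of 1.91 (1.5 to 2.45) and 2.05 (1.37 to 3.2). Without Xist-bearing cells, 12m T cells were at 94.2 CPM in CBMA, not above 02m, and 223 CPM in CBMD. In these 3 classes, then, Cdkn1b was higher at 18m than at 02m in both sites, with intervals above 1. B cells went the same way with intervals that held 1, at 1.24 (0.807 to 1.94) and 1.32 (0.821 to 2.23). Basophils were at 1.13 (0.753 to 1.74) in CBMA and 0.804 (0.513 to 1.32) in CBMD, and suture cells of CBMA at 0.803 (0.496 to 1.33). Within cycling neutrophils the ratio of 18m to 02m was 1.4 (1.12 to 1.74) in CBMA and 0.959 (0.693 to 1.33) in CBMD.

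Cdkn1c, which encodes p57 and is an imprinted gene read from the maternal copy, was the member most tied to stromal and vessel classes. Suture cells had 349 CPM (317 to 382), osteoblasts 159 (106 to 230.0), endothelial cells 154 (133 to 177), Schwann cells 145 (88.8 to 224), mural cells 87.9 (68.9 to 110.5) and CAR stromal cells 84.3 (69.1 to 102). Only the interval of the suture cells lay apart from that of its neighbour in this order. Of the 20 Cdkn1c UMIs of Schwann cells, 18 came from CBMA at 18m. Monocytes had 4.55 CPM, neutrophils 2.08 and plasma cells 0.631. A Cdkn1c UMI was seen in 103 of 138 suture cells (74.6%, median 8511 UMIs per cell), 3.72% of monocytes at a greater depth of 9295 UMIs, and 0.501% of neutrophils at 2965. At 1000 UMIs per cell the expected share of suture cells was 25.3%, and that of monocytes 0.495%. Suture cells were 0.367% of all cells and held 22% of the Cdkn1c UMIs.

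**Figure D3:**
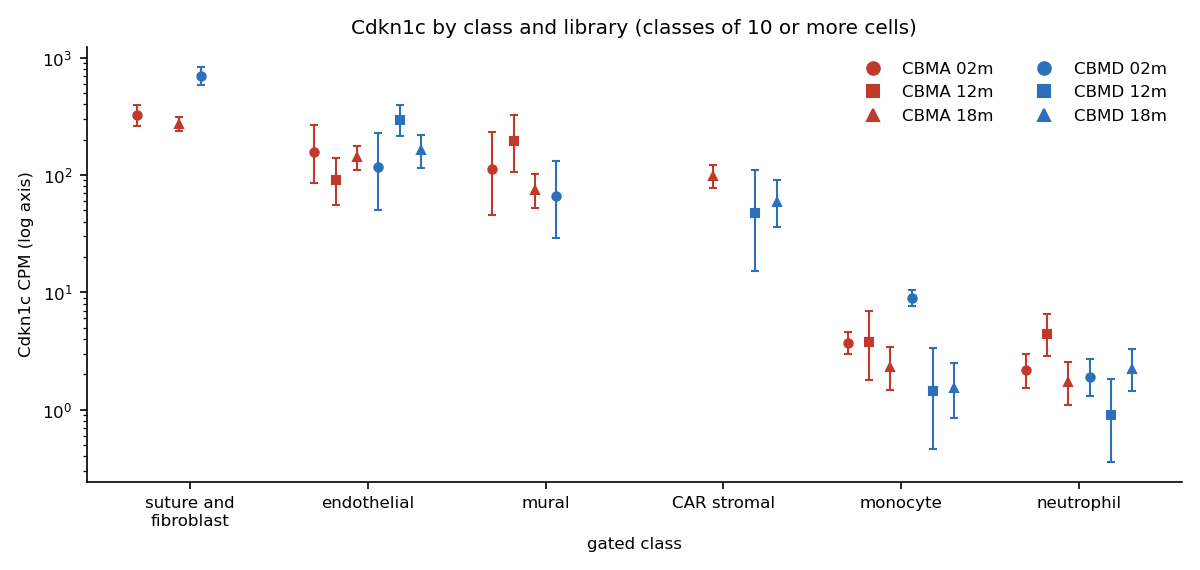
Cdkn1c level in CPM, on a logarithmic axis, in 6 gated classes, for each library in which the class had 10 or more cells, with bars for the exact 95% counting interval. Suture cells lie at 274 CPM in CBMA at 18m, 324 in CBMA at 02m and 702 in CBMD at 02m, above the monocytes of every library.

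In all cells Cdkn1c was at 6.97, 10.9 and 19.4 CPM in CBMA at 02m, 12m and 18m and 12, 4.73 and 4.26 CPM in CBMD at the same ages, so that CBMD was the higher site at 02m and CBMA at 12m and 18m. Against 02m, the ratio of 18m was 2.79 (2.45 to 3.17) in CBMA and 0.356 (0.294 to 0.429) in CBMD, and that of CBMA to CBMD was 0.583 (0.508 to 0.668) at 02m, 2.31 (1.78 to 3.01) at 12m and 4.56 (3.81 to 5.49) at 18m. In CBMA, suture cells numbered 74 at 18m and 39 at 02m, endothelial cells 94 and 17, CAR stromal cells 98 and 2, and mural cells 51 and 10. With the same mix of classes in each library, the stromal classes taken as 1, the CBMA ratio was 1.09 and the CBMD ratio 0.294. The mix within the stromal classes was not made the same, so these ratios can still move with the number of suture cells among them. Within the suture cells of CBMA, the level was 274 CPM at 18m against 324 at 02m, a ratio of 0.847 (0.665 to 1.08). The 21 suture cells of CBMD at 02m were at 702 CPM (584 to 835), and CBMD at 18m had none. Of the 126 UMIs of those 21 cells, 27 came from 1 cell, which the interval does not allow for. Endothelial cells gave 0.898 (0.503 to 1.72) and 1.39 (0.643 to 3.44) for 18m to 02m in CBMA and CBMD.

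Monocytes had little Cdkn1c, at 3.73, 3.74 and 2.32 CPM in CBMA at 02m, 12m and 18m and 8.97, 1.44 and 1.52 CPM in CBMD at the same ages, and CBMD at 02m was the high library. Their ratio of 18m to 02m was 0.622 (0.377 to 0.991) in CBMA and 0.169 (0.0927 to 0.287) in CBMD. The low CBMD ratio was seen in cycling monocytes, at 0.174 (0.0625 to 0.391), and in the others, at 0.185 (0.0806 to 0.373). Among 12m cells with no Xist UMI, the all-cell ratio of 12m to 02m was 1.29 (0.954 to 1.7) in CBMA and 0.236 (0.156 to 0.342) in CBMD, against 1.56 (1.28 to 1.91) and 0.395 (0.317 to 0.488) in all 12m cells. With the same mix of classes the CBMA ratio of 12m to 02m turned to 0.89, the direction of CBMD. The stromal classes were again taken as 1, and the mix within them still differed. Suture cells, the class with the highest level, numbered 39 in CBMA at 02m and 1 at 12m.

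Cdkn2a, the p16 and Arf gene, gave 11, 9 and 25 UMIs in CBMA at 02m, 12m and 18m and 9, 26 and 19 in CBMD, that is 0.217, 0.712 and 0.629 CPM in CBMA at 02m, 12m and 18m and 0.202, 1.18 and 0.571 CPM in CBMD at the same ages. The 02m library was the lowest of each site. The ratio of 18m to 02m was 2.9 (1.38 to 6.54) in CBMA and 2.82 (1.22 to 7.08) in CBMD, and that of 12m to 02m 3.28 (1.2 to 8.72) and 5.85 (2.66 to 14.2). All 4 intervals lay above 1, although the sums stayed under the 50 UMIs asked of a comparison. At 12m, all 9 of these UMIs in CBMA came from cells with an Xist UMI, and without such cells the CBMD ratio of 12m to 02m was 3.37 (1.07 to 10.2). The UMIs were spread thinly, with 20 in 6641 monocytes, 15 in 198 plasma cells, 12 in 1092 T cells, 11 in 606 B cells, 10 in 396 basophils, 8 in 20778 neutrophils and 4 in 287 macrophages. In CPM, B cells were at 3.6 (1.8 to 6.44), basophils at 3.34 (1.6 to 6.15), plasma cells at 3.15 (1.76 to 5.2) and T cells at 1.79 (0.923 to 3.12), and these intervals overlapped. Monocytes at 0.298 (0.182 to 0.461) and neutrophils at 0.109 (0.0472 to 0.216) lay below all 4. Plasma cells numbered 48 at 18m and 10 at 02m in CBMA, and 82 and 5 in CBMD. Within monocytes the Cdkn2a ratio of 18m to 02m was 3.5 (0.681 to 22.5) in CBMA (5 against 3 UMIs) and 1.54 (0.305 to 7.13) in CBMD (4 against 5), and within T cells of CBMA it was 1.49 (0.284 to 14.7). All 3 of these intervals held 1.

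A Cdkn2a UMI was seen in 6.06% of plasma cells (median 23578.5 UMIs), against 0.0337% of neutrophils (median 2965), and at 1000 UMIs per cell the expected plasma share was 0.299%. The stromal classes held 2 UMIs in 172 CAR stromal cells and 2 in 138 suture cells, in each class from 1 cell, at 1.58 (0.191 to 5.69) and 1.55 (0.188 to 5.6) CPM. No Cdkn2a UMI was seen in endothelial cells (0 of 243 cells, which allows a share of cells with a UMI of up to 1.23% and a level of up to 2.3 CPM), mural cells (up to 3.61 CPM), osteoblasts (17), Schwann cells (21.8), dendritic cells (1.72), erythroid cells (1.83), megakaryocytes (5.76), NK cells (13.6) or myeloid progenitors (0.351), each limit being 3 counts over the UMIs of the class. These limits are on UMIs seen and not on cells that express the gene, since at such levels most expressing cells would give no UMI. For mural cells, megakaryocytes, NK cells, osteoblasts and Schwann cells the limit lies above the level of every positive class, so these classes could hold as much as the highest.

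Cdkn2b, which encodes p15, had 9, 7 and 13 UMIs in CBMA by age and 7, 16 and 13 in CBMD, at 0.177, 0.554 and 0.327 CPM in CBMA at 02m, 12m and 18m and 0.157, 0.728 and 0.39 CPM in CBMD at the same ages. Set against 02m, the ratio of 18m was 1.85 (0.73 to 4.89) in CBMA and 2.48 (0.921 to 7.35) in CBMD, with 1 inside each interval, and the ratio of 12m to 02m was 3.12 (0.988 to 9.42) and 4.63 (1.8 to 13.3). Without Xist-bearing cells the 12m ratio was 1.77 (0.187 to 8.57) in CBMA (2 UMIs at 12m) and 1.86 (0.31 to 8.13) in CBMD (3 UMIs), with 1 inside both intervals. Plasma cells held 14 UMIs (2.94 CPM, 1.61 to 4.94), T cells 10 (1.49 CPM, 0.714 to 2.74) and B cells 4 (1.31 CPM, 0.357 to 3.35). Neutrophils with 13 UMIs were at 0.178 CPM (0.0947 to 0.304) and monocytes with 2 at 0.0298 CPM (0.00361 to 0.108), both below plasma and T cells. Monocytes thus held 20 UMIs of Cdkn2a and 2 of its neighbour Cdkn2b. Macrophages had none (1.5 CPM at most), nor had CAR stromal cells (2.36), suture cells (2.32), mural cells (3.61), dendritic cells (1.72), NK cells (13.6), osteoblasts (17) or Schwann cells (21.8).

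Cdkn2c, which encodes p18, was higher in cycling than in other neutrophils and monocytes of every library, while between classes its level did not always go with their cycling share. Erythroid cells had 68.9 CPM (56.8 to 82.9), monocytes 49.7, myeloid progenitors 46.5, basophils 43.8, neutrophils 12.7 and CAR stromal cells 6.3, and 76.8%, 34.9%, 74.1%, 34.1%, 6.14% and 0.581% of these cells were cycling, in that order. Suture cells, with 1.45% cycling, had 36.4 CPM (47 UMIs, most of them from CBMA at 02m), about the level of megakaryocytes at 36.5 CPM (19 UMIs) with 46.2% cycling. Of the 47 UMIs of suture cells, 14 came from 1 cell. Within neutrophils, cycling cells had 56.2, 96.9 and 71.7 CPM in CBMA by age and 32.4, 49.9 and 47.4 CPM in CBMD, and the other neutrophils of the same libraries had 2.71, 10.4 and 4.05 and 2.61, 9.55 and 4.31 CPM. The ratio was 5.23 to 20.7 over the 6 libraries. Cycling neutrophils are early cells, and against other neutrophils rich in granule genes, which had 4.0 to 12.4 CPM, the ratio was 4.04 to 14.1. The granule-rich cells held only 2 to 18 Cdkn2c UMIs in a library, so the size of that ratio is loose. Within monocytes it was 4.66 to 10.3. Of 5 members compared in every library, 2 (Cdkn2c and Trp53) were called higher and 1 (Cdkn1b) lower in the cycling neutrophils of all 6, beside 20.7% higher and 16.6% lower over all genes. In monocytes 2 (Cdkn2c and Cdkn2d) were higher and none lower, beside 7.92% and 5.53%.

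**Figure D4:**
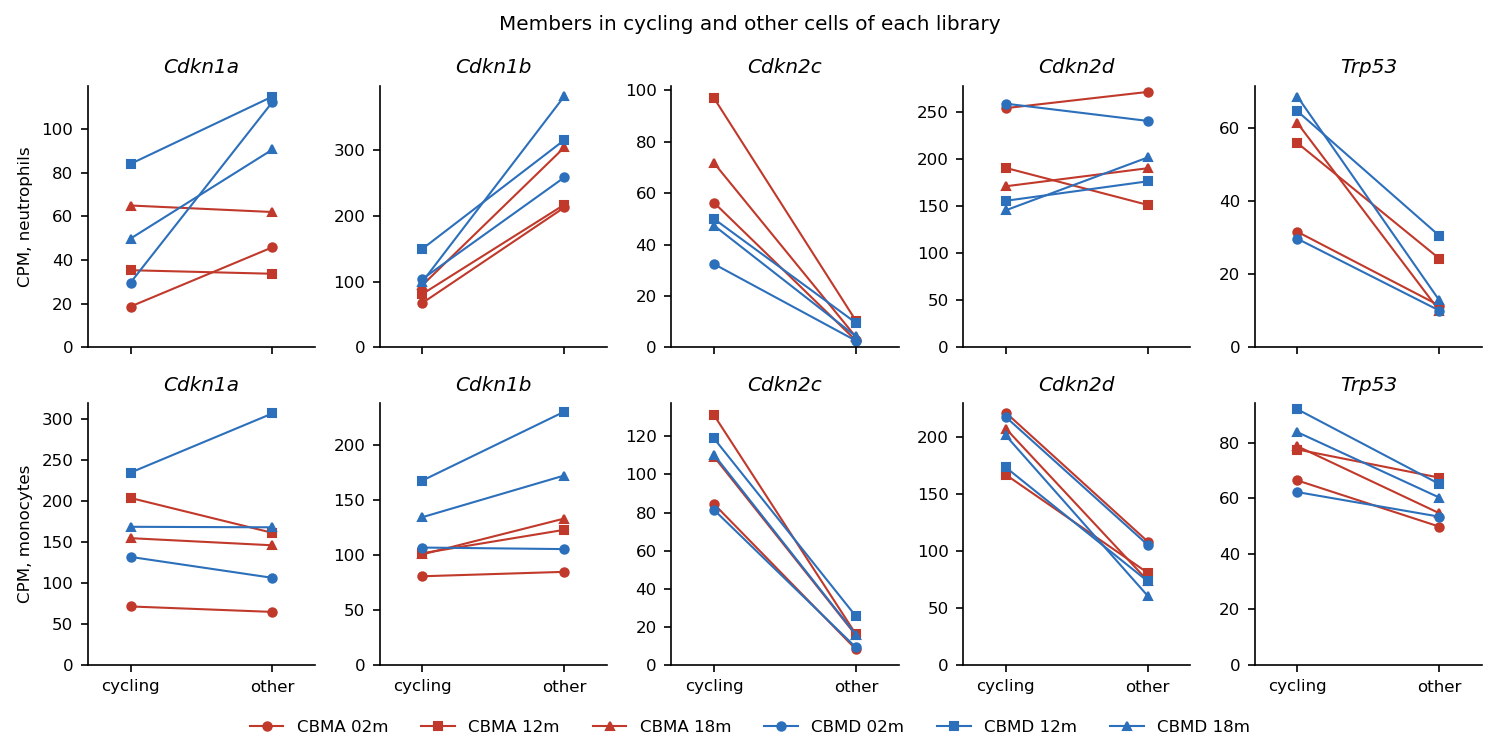
Level in CPM of 5 members in cycling cells (left) and other cells (right) of the same library, joined by a line, in neutrophils (upper row) and monocytes (lower row), with colour for site and symbol for age. Cdkn2c is higher in the cycling cells of all 6 libraries in both classes, and Cdkn1b is lower in the cycling neutrophils of all 6, at 0.261 to 0.475 of the other cells.

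In all cells Cdkn2c was at 37.4, 41.4 and 22.9 CPM in CBMA at 02m, 12m and 18m and 27.9, 25 and 25.2 CPM in CBMD at the same ages, with ratios of 18m to 02m of 0.611 (0.564 to 0.662) in CBMA and 0.904 (0.827 to 0.988) in CBMD. With the same mix of classes in each library the CBMA ratio was 0.742 and no longer called. In monocytes the level was 54, 48.2 and 41.6 CPM in CBMA at 02m, 12m and 18m and 50.2, 48.5 and 48.7 CPM in CBMD at the same ages, a ratio of 18m to 02m of 0.771 (0.689 to 0.862) and 0.971 (0.868 to 1.08). Split by cycling, it went the other way, since the ratio was 1.29 (1.14 to 1.47) and 1.36 (1.2 to 1.53) in cycling monocytes of CBMA and CBMD and 1.9 (1.4 to 2.59) and 1.73 (1.27 to 2.36) in the others, while the cycling share was lower at 18m. Neutrophils had 14.5, 47 and 10.6 CPM in CBMA at 02m, 12m and 18m and 3.89, 13.8 and 7.39 CPM in CBMD at the same ages, which gave a ratio of 0.734 (0.595 to 0.904) in CBMA, where the cycling share of neutrophils was 3.46% at 18m against 12.3% at 02m, and 1.9 (1.36 to 2.66) in CBMD, where it was 2.53% against 2.23%. Within cycling neutrophils the ratio of 18m to 02m was 1.27 (0.991 to 1.63) in CBMA and 1.46 (0.854 to 2.55) in CBMD, with 1 inside both intervals. The level of the other neutrophils, given above without an interval, was also higher at 18m than at 02m in both sites. At 12m the neutrophil ratio to 02m was 3.25 (2.73 to 3.88) in CBMA and 3.55 (2.59 to 4.88) in CBMD, and 2.51 (2.01 to 3.11) and 2.9 (1.99 to 4.23) without Xist-bearing cells. Cycling cells were 16.4% of neutrophils in CBMA and 4.79% in CBMD at 12m, the highest share of each site, and these ratios can move with it. The levels of cycling and of other neutrophils, given above, were both higher at 12m than at 02m. Suture cells held 6 Cdkn2c UMIs at 18m (7.87 CPM, 6 of 74 cells positive) against 36 at 02m in CBMA (115 CPM, 16 of 39 positive), a ratio of 0.0682 (0.0235 to 0.163). At 02m, 1 cell held 14 of the 36 UMIs, which the interval does not allow for. Suture cells of CBMD at 02m were at 27.8 CPM (9.04 to 65). The ratio of 12m to 02m over all cells was 1.11 (1.0 to 1.22) and 0.897 (0.81 to 0.992) in CBMA and CBMD, and 0.90 (0.777 to 1.04) and 0.802 (0.694 to 0.924) without Xist-bearing cells.

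Cdkn2d, which encodes p19Ink4d, a protein distinct from Arf, was highest at 02m in both sites, at 197, 119 and 119 CPM in CBMA at 02m, 12m and 18m and 189, 115 and 123 CPM in CBMD at the same ages. The ratio of 18m to 02m was 0.603 (0.583 to 0.625) in CBMA and 0.652 (0.628 to 0.677) in CBMD, and that of 12m to 02m 0.605 (0.572 to 0.638) and 0.609 (0.582 to 0.636). Without Xist-bearing cells the 12m ratios were 0.615 and 0.651. The sites differed little at a given age, with CBMA at 1.05 (1.02 to 1.08), 1.04 (0.974 to 1.11) and 0.967 (0.927 to 1.01) of CBMD at 02m, 12m and 18m. With the same mix of classes the ratio of 18m to 02m was 0.663 in CBMA and 0.75, no longer called, in CBMD. Neutrophils had 218 CPM, megakaryocytes 192 (156 to 233), monocytes 148, basophils 143, T cells 75.4, B cells 64.1, osteoblasts 39.8, mural cells 28.9, endothelial cells 28.3, suture cells 24.8, CAR stromal cells 18.9, macrophages 18 and plasma cells 9.67. Gated with 1 more marker, megakaryocytes rather than neutrophils were the highest class.

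In monocytes Cdkn2d was at 177, 105 and 111 CPM in CBMA at 02m, 12m and 18m and 169, 98.2 and 109.8 CPM in CBMD at the same ages, so that both 02m libraries lay above the other 4. Against the 02m libraries, 18m had a ratio of 0.63 (0.59 to 0.674) and 0.648 (0.604 to 0.694) in CBMA and CBMD, and 12m monocytes without an Xist UMI had 0.451 (0.356 to 0.563) and 0.52 (0.428 to 0.625). Cycling monocytes had 2.04 to 3.32 times the level of the others within a library, and they were fewer at 18m. Within cycling monocytes the ratio of 18m to 02m was 0.937 (0.857 to 1.02) and 0.925 (0.849 to 1.01), and within the others 0.683 (0.613 to 0.759) and 0.575 (0.509 to 0.649). In neutrophils the level was 268, 168 and 189 CPM in CBMA at 02m, 12m and 18m and 242, 174 and 198 CPM in CBMD at the same ages, a ratio of 0.704 (0.671 to 0.739) and 0.819 (0.778 to 0.863), and within cycling neutrophils 0.673 (0.581 to 0.778) and 0.563 (0.443 to 0.712). Myeloid progenitors gave 0.535 (0.389 to 0.721) and 0.641 (0.47 to 0.868). T cells gave 0.823 (0.615 to 1.11) and 0.815 (0.512 to 1.35), with 1 inside both intervals.

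**Figure D5:**
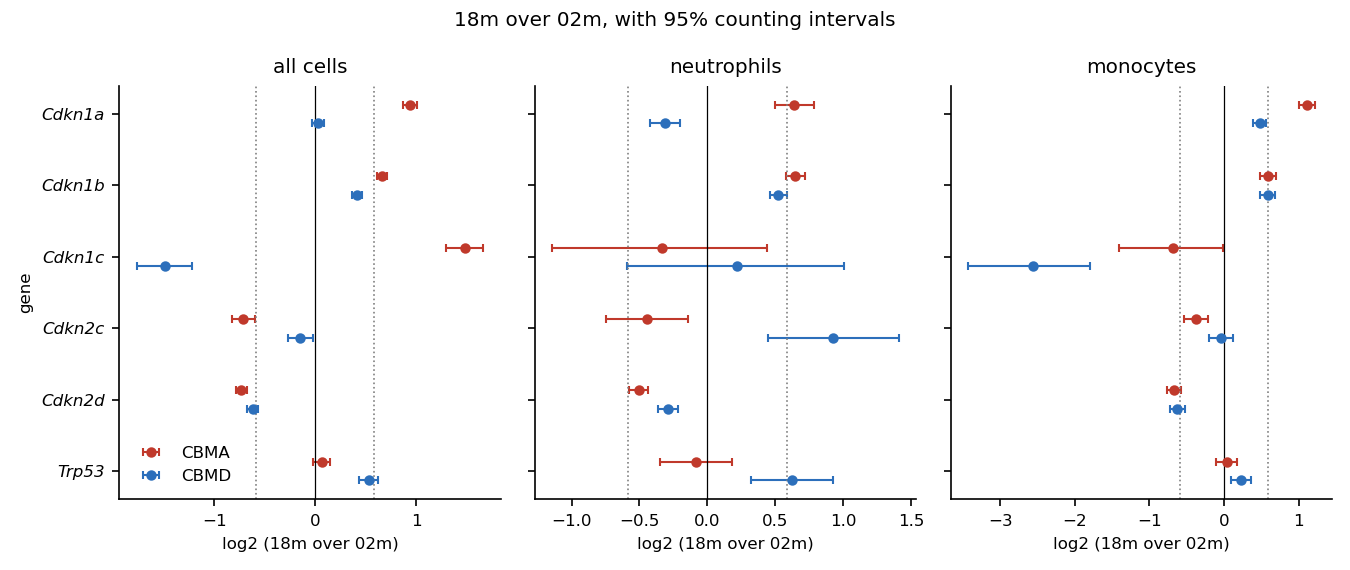
Ratio of 18m to 02m for each member with enough UMIs, on a log2 axis with dotted lines at a ratio of 1.5 either way, in all cells, neutrophils and monocytes, with CBMA and CBMD as separate points and bars for the exact 95% counting interval. In monocytes, Cdkn1a and Cdkn1b lie above 1 and Cdkn2d below 1 in both sites.

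Trp53 was at 50.4, 60.4 and 52.7 CPM in CBMA at 02m, 12m and 18m and 41.4, 73.8 and 59.8 CPM in CBMD at the same ages. The ratio of 18m to 02m was 1.05 (0.987 to 1.11) in CBMA and 1.44 (1.35 to 1.54) in CBMD, neither of them called, and that of 12m to 02m 1.2 (1.1 to 1.3) and 1.78 (1.67 to 1.91), of which that of CBMD was called. In 12m cells of CBMD without Xist UMIs the CBMD ratio was 1.58 (1.45 to 1.73). Erythroid cells had 165 CPM (146 to 186), megakaryocytes 163 (130.3 to 202), NK cells 136 (91.8 to 194), T cells 125 (117 to 134), myeloid progenitors 119.8 (113 to 127) and B cells 111 (99.1 to 123). Neighbours in this order overlapped. Macrophages had 81.2, endothelial cells 71.2, monocytes 62, CAR stromal cells 57.5, osteoblasts 51.1, suture cells 44.9, mural cells 27.7, plasma cells 24.4 and neutrophils 18.4 CPM, so neutrophils, the most numerous class, held 12.4% of Trp53 UMIs.

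Cycling neutrophils had 31.6, 55.9 and 61.3 CPM of Trp53 in CBMA by age and 29.7, 64.6 and 68.5 CPM in CBMD, and the other neutrophils 11.5, 24.3 and 10 and 10.1, 30.5 and 12.8 CPM, a ratio of 2.12 to 6.12 over the 6 libraries. Against granule-rich neutrophils only, it was 1.14 (CBMD at 02m) to 5.83. Cdkn1b ran the other way, with 0.261 to 0.475 times as much in cycling as in other neutrophils and 0.413 to 0.842 times as much as in the granule-rich ones. Cycling monocytes had 1.15 to 1.44 times the Trp53 of other monocytes. In all neutrophils, Trp53 was at 15.9, 37.7 and 15 CPM in CBMA at 02m, 12m and 18m and 10.9, 34.1 and 16.8 CPM in CBMD at the same ages, with a ratio of 18m to 02m of 0.945 (0.785 to 1.14) in CBMA and 1.54 (1.25 to 1.9) in CBMD, where leaving out cycling cells gave 1.28. For 12m to 02m it was 2.37 (1.98 to 2.85) and 3.12 (2.58 to 3.78), and 2.11 (1.68 to 2.62) and 3.09 (2.48 to 3.83) without Xist-bearing cells. For 18m to 02m, myeloid progenitors had ratios of 1.5 (1.2 to 1.85) in CBMA and 1.63 (1.3 to 2.04) in CBMD. Monocytes were at 59.8, 70.3 and 61.4 CPM in CBMA at 02m, 12m and 18m and 58.4, 71.8 and 68.5 CPM in CBMD at the same ages. Their ratios of 18m to 02m were 1.03 (0.932 to 1.13) in CBMA and 1.17 (1.06 to 1.29) in CBMD.

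The genes that act with the members were counted over all cells in the same way, for 18m against 02m, to be read beside the 0.24 (CBMA) and 0.11 (CBMD) of the median gene and the shares of all genes called, given above. Of the regulators of p53, 7 of 9 were compared, 1 higher and 0 lower in CBMA (median log2 ratio 0.49) and 2 higher and 0 lower in CBMD (0.35). Trp53bp1, which binds p53 and works at DNA breaks, was at 2.44 in CBMA and 2.27 in CBMD. Of the p53 targets, 23 of 24 were compared, 11 higher and 2 lower in CBMA (median log2 ratio 0.51) and 4 higher and 3 lower in CBMD (0.21). Called higher in both sites were Ccng1 (cyclin G1, 1.74 in CBMA and 1.67 in CBMD), Zmat3 (3.63 in CBMA and 2.42 in CBMD), Trp53inp1 (2.19 in CBMA and 2.0 in CBMD) and the death receptor gene Tnfrsf10b (4.65 in CBMA and 4.44 in CBMD). Called lower in both were Bax, which opens the mitochondrial membrane in apoptosis (0.498 in CBMA and 0.512 in CBMD), and the ribosomal protein gene relative Rps27l (0.524 in CBMA and 0.607 in CBMD). The p53 targets therefore held calls in both directions in both sites, and Cdkn1a was called in CBMA only.

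Of the kinases, cyclins and pocket proteins that the inhibitors act on or through, 18 of 18 were compared, 3 higher and 6 lower in CBMA (median log2 ratio -0.27) and 2 higher and 2 lower in CBMD (-0.06). Cdk1, the mitotic kinase, was at 0.387 in CBMA and 0.573 in CBMD and its partner Ccna2 at 0.48 in CBMA and 0.615 in CBMD, whereas Ccnd2, a D-type cyclin, was at 1.78 in CBMA and 1.53 in CBMD. Of the genes of S phase, 17 of 17 were compared, 0 higher and 12 lower in CBMA (median log2 ratio -0.66) and 0 higher and 3 lower in CBMD (-0.16), with Rrm2, Tk1 and Gins2 lower in both. Of the genes of G2 and M phase that defined cycling cells, 16 of 16 were compared, 0 higher and 14 lower in CBMA (median log2 ratio -1.01) and 0 higher and 8 lower in CBMD (-0.59). Cdk1 and Ccna2 belong to this list too. For p27, of the genes of its breakdown and of the FOXO factors that can raise its transcription, 6 of 6 were compared, 3 higher and 1 lower in CBMA (median log2 ratio 0.60) and 1 higher and 1 lower in CBMD (0.36). Foxo1 was at 3.12 in CBMA and 3.16 in CBMD, and Cks1b, which helps mark p27 for breakdown, at 0.415 in CBMA and 0.532 in CBMD. Of the Polycomb genes and the demethylase gene Kdm6b, which act on the Cdkn2a and Cdkn2b locus, 10 of 10 were compared, 5 higher and 0 lower in CBMA (median log2 ratio 0.68) and 2 higher and 0 lower in CBMD (0.31), and Bmi1 was at 2.57 in CBMA and 2.21 in CBMD and Rnf2 at 2.1 in CBMA and 1.68 in CBMD.

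Within monocytes, Mdm2, the main antagonist of p53 and itself a p53 target, was at 1.69 in CBMA and 1.57 in CBMD, Bbc3, which encodes the death protein Puma, at 1.99 in CBMA and 1.73 in CBMD, Bax at 0.632 in CBMA and 0.584 in CBMD, Foxo1 at 2.02 in CBMA and 2.41 in CBMD, Foxo3 at 1.63 in CBMA and 1.6 in CBMD and Cks1b at 0.515 in CBMA and 0.543 in CBMD. Of the p53 targets in monocytes, 20 of 24 were compared, 10 higher and 2 lower in CBMA (median log2 ratio 0.55) and 5 higher and 1 lower in CBMD (0.26). Of all genes compared in monocytes, 22% were higher and 12% lower in CBMA (median 0.13) and 20.3% and 12.6% in CBMD (0.11). Of the same targets in neutrophils, 19 of 24 were compared in CBMA and 18 in CBMD, 5 higher and 4 lower in CBMA (median log2 ratio 0.10) and 5 higher and 4 lower in CBMD (0.07), with Btg2, an antiproliferative gene, at 2.22 in CBMA and 1.87 in CBMD, Ccng1 at 1.94 in CBMA and 2.01 in CBMD, Apaf1, the core of the apoptosome, at 1.62 in CBMA and 1.76 in CBMD, the kinase gene Plk2 at 0.651 in CBMA and 0.61 in CBMD and Bax at 0.493 in CBMA and 0.461 in CBMD. Over all genes of neutrophils 14.3% were higher and 23% lower in CBMA (median -0.08) and 15.3% and 17.4% in CBMD (0.04). Beside those shares, the 16 G2 and M genes of neutrophils gave 0 higher and 14 lower in CBMA and 7 higher and 0 lower in CBMD, beside the Cdkn2c ratios of 0.734 and 1.9. Without cycling cells the Cdkn2c ratio of CBMD neutrophils was 1.65, and the level of CBMA neutrophils was also higher at 18m than at 02m.

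Over the 18 classes, the genes whose level was most like that of a member, by Pearson's r of log2(CPM + 10) among 18149 genes with at least 50 UMIs, were ranked as a description, since classes differ in depth and in the share of each library. For Cdkn1c they were Sparc at 0.98, Nectin3 at 0.97 and Dixdc1 at 0.97, and Sparc is a matrix protein gene of stromal and endothelial cells. For Trp53 they were Ddx21 at 0.94, Dhx9 at 0.91 and Ncl at 0.91, genes of RNA helicases and of nucleolin. For Cdkn2c they were AC157548.1 at 0.92, Polr2j at 0.89 and Suv39h1 at 0.89, for Cdkn2d Diaph1 at 0.91, Pacs1 at 0.90 and Hmgn2 at 0.90, for Cdkn1a Diaph2 at 0.87, Tmem50a at 0.87 and Hmgcs1 at 0.85 and for Cdkn1b Gm26526 at 0.87, Eif1 at 0.86 and Carns1 at 0.85. For Cdkn2a and Cdkn2b, which rest on few UMIs, they were E330020D12Rik at 0.78, Syvn1 at 0.78 and AC133172.1 at 0.76, and 4930580E04Rik at 0.91, Gm15533 at 0.86 and Ak7 at 0.84.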

How the data were processed

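Per the labels and the study's methods, the authors made each library from pooled mice with the 10x Genomics 3' version of the assay, ran bcl2fastq and Cell Ranger against GRCm 38, and deposited raw UMI counts per gene and cell barcode, before their own limits on cells; the annotation release is not given in the sources used here. Here those limits were applied to the deposited counts: 500 to 5000 genes, more than 500 UMIs and under 25% mitochondrial UMIs per cell. A cell was assigned to a class when it held UMIs of at least 50% of the class's markers, with S100a8 and S100a9 at 1% or more of its UMIs for neutrophils and under 1% for every other class. Cells that passed gates of unlike classes (1133 cells) were left out of classes, no doublet caller was run, and 4519 cells passed none. The gate thresholds and the minimum of 4 of 16 G2 and M genes for cycling cells were chosen after seeing the data, and the members, markers and lists with earlier results of these data known.

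Counts were summed over cells and divided by the total UMIs of the same cells (CPM). Intervals are exact Poisson for levels, Clopper-Pearson for shares and exact conditional for ratios, at 95%. Where a count was 0, the limit is 3 counts. UMIs are not replicates, so intervals and limits cover counting error only, and no p-value was computed. A gene with at least 50 UMIs in a pair was called at a ratio of 1.5. Shares at 1000 UMIs are the expected share after drawing that many UMIs from each cell, with shallower cells left out. Ratios with the same mix of classes weight the level of each class by its mean share of UMIs over the 6 libraries, with stromal, endothelial and Schwann classes taken as 1 class and T and NK cells as 1. All 8 members were named. Of each pathway list, the genes called in the same direction in both sites were named, or else the 2 with the most UMIs, and not all of these are printed. For likeness, the 3 genes with the highest r were named. The ratio and call code was tested on simulated data. Alternatives covered gates with 1 more marker, cells in the top 5% of UMIs left out, median-of-ratios scaling, count minimums of 10 and none, a 2-fold call and 2000 UMIs. Python 3.11.15, numpy 2.4.6, scipy 1.17.1, pandas 2.3.3 and matplotlib 3.10.9 were used.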

Additional observations from a re-analysis of the deposited data

Results flagged for a closer look

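Some ratios ran in opposite directions in CBMA and CBMD with intervals on opposite sides of 1, and the difference between the sites was not tested, since each site had 1 library per age. Cdkn1c over all cells was at 2.79 times its 02m level at 18m in CBMA and 0.356 times in CBMD, and at 12m at 1.56 times in CBMA and 0.395 times in CBMD. With the same mix of classes in each library, the Cdkn1c ratio in CBMA was 1.09 at 18m and 0.890, the direction of CBMD, at 12m. The stromal classes were taken as 1 for this, so the share of suture cells among them still differed between libraries. In neutrophils, Cdkn1a at 18m was at 1.56 times its 02m level in CBMA and 0.806 times in CBMD, and Cdkn2c at 0.734 times in CBMA and 1.90 times in CBMD. Within cycling neutrophils Cdkn1a was at 3.47 times in CBMA and 1.68 times in CBMD, where the interval of 0.974 to 2.97 holds 1. Cdkn2c in cycling neutrophils was at 1.27 times (0.991 to 1.63) in CBMA and 1.46 times (0.854 to 2.55) in CBMD. Both of these intervals hold 1. In the other neutrophils the level of Cdkn2c was also higher at 18m than at 02m in both sites, but no interval is given for them. Whether its opposite directions lie within either part was not tested. Cdkn2c over all cells at 12m was at 1.11 times its 02m level in CBMA and 0.897 times in CBMD, and at 0.90 and 0.802 times without Xist-bearing cells. Apart from the members, Xist stood at 564 CPM in CBMA and 596 CPM in CBMD at 12m, although the mice were stated to be male.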

How the results depend on the processing

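Each comparison rests on 1 library per age and site, so differences between mice and dissections could not be measured, and leaving out a replicate was not possible. No paired analysis was possible because each group is 1 library, with 1 as the only replicate number in the labels. Of the 8 members in 2 sites, 7 pairs were called for 18m against 02m over all cells, and the number was 4 with the same mix of classes, 11 at a minimum of 10 UMIs and with no minimum, and 2 at 2-fold. For 12m against 02m it was 5, and 3 without the cells in the top 5% of UMIs, 9 at a minimum of 10 UMIs and with no minimum, and 1 at 2-fold. For CBMA against CBMD at 3 ages it was 7, and 3 at 2-fold. The ratio of Cdkn1c at 12m to 02m in CBMA, 1.56, turned to 0.890 with the same mix of classes, though the mix within the stromal classes still differed. The 3 members called in cycling neutrophils of all 6 libraries became 0 against granule-rich neutrophils alone, an alternative chosen after seeing the data, in which Cdkn2c ran from 4.04 to 14.1 but had under 50 UMIs in some pair and Trp53 in CBMD at 02m was at 1.14. The calls within neutrophils and monocytes numbered 10, and 8 to 13 under the alternatives. For 12m against 02m in those classes they numbered 12, and 13 without Xist-bearing cells, an alternative chosen after seeing the data. Gated with 1 more marker, the highest class of Cdkn2d became megakaryocytes and that of Trp53 NK cells. Cdkn2a and Cdkn2b are limited by depth, with 99 and 65 UMIs in all.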
